A study of Arabidopsis thaliana with 24 samples.

Results

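The class III peroxidases of Arabidopsis are described here as 60 loci named by their locus codes, of which 50 had a probe set of their own on the ATH1 array, out of 22746 probe sets measured. Each of these 50 loci had 1 probe set, and a probe set counted as a member when the platform annotation gave it exactly 1 of the 60 loci. Another 3 loci were reached only through 2 probe sets that they share with a second locus, and 7 loci were not found in the annotation used here. By their positions in the RefSeq TAIR10.1 gene table, the measured loci lie on chromosome 1 (9 loci), 2 (9), 3 (6), 4 (9) and 5 (17). RefSeq gives a symbol to 2 of them, PRXR1 (AT4G21960) and PRX52 (AT5G05340), and the others are called by locus code.

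RNA came from roots and from rosette leaves of Col-0 plants that were 29 days old and had been watered from above in potting media. The 8 groups of 3 arrays were, in each tissue, nano-titania (TiO2) suspended in KCl, KCl alone, nano-ceria (CeO2) suspended in millipore water, and millipore water alone. Particles were given at 500 mg/L on days 0, 4 and 17, so the TiO2 plants also received the salt of their KCl controls, which is given as 0.1 mM in the descriptions of the samples but as 0.1 M in the protocol of treatment. Replicates are biological per the labels, which do not say which leaf and root arrays came from the same plants.

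Class III peroxidases are secreted haem enzymes that use hydrogen peroxide to oxidise phenolic compounds and cell wall proteins. They polymerise monolignols into the lignin of vessels and of the Casparian strip, the diffusion barrier of the root endodermis, and stiffen walls by cross-linking. Other members make or consume reactive oxygen species in growing root hairs and in tissue under attack or wounding, and roots are the organ in which much of the family is transcribed.

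Array medians lay between 4.96 and 5.15 on the log2 scale, and 6 of the 24 arrays had a compressed lower range, with a lower quartile above 3.7. The narrow-range arrays were replicate 2 of the TiO2 roots, replicates 1 and 3 of the KCl roots, replicate 1 of the water roots, and replicate 2 of both the KCl and the CeO2 leaves. The tissue labels fitted their markers. The root markers measured were PYK10, JAL33, JAL22 and JAL34, and whether they vary as 1 set was not tested. The summed log2 signal of 4 root markers (of 9 listed) was 36.1 to 45.6 in roots and 14.8 to 24.8 in leaves, and that of 5 leaf markers (of 13 listed) was 20.7 to 32.2 in roots and 53.2 to 62.5 in leaves. Signals are log2 RMA values throughout, so a difference of 1 is a factor of 2, and the level of a probe set is compared with itself across groups and not with that of another probe set. In total RNA of a whole organ, fewer cells of a type and less RNA per cell cannot be told apart.

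**Figure D1:**
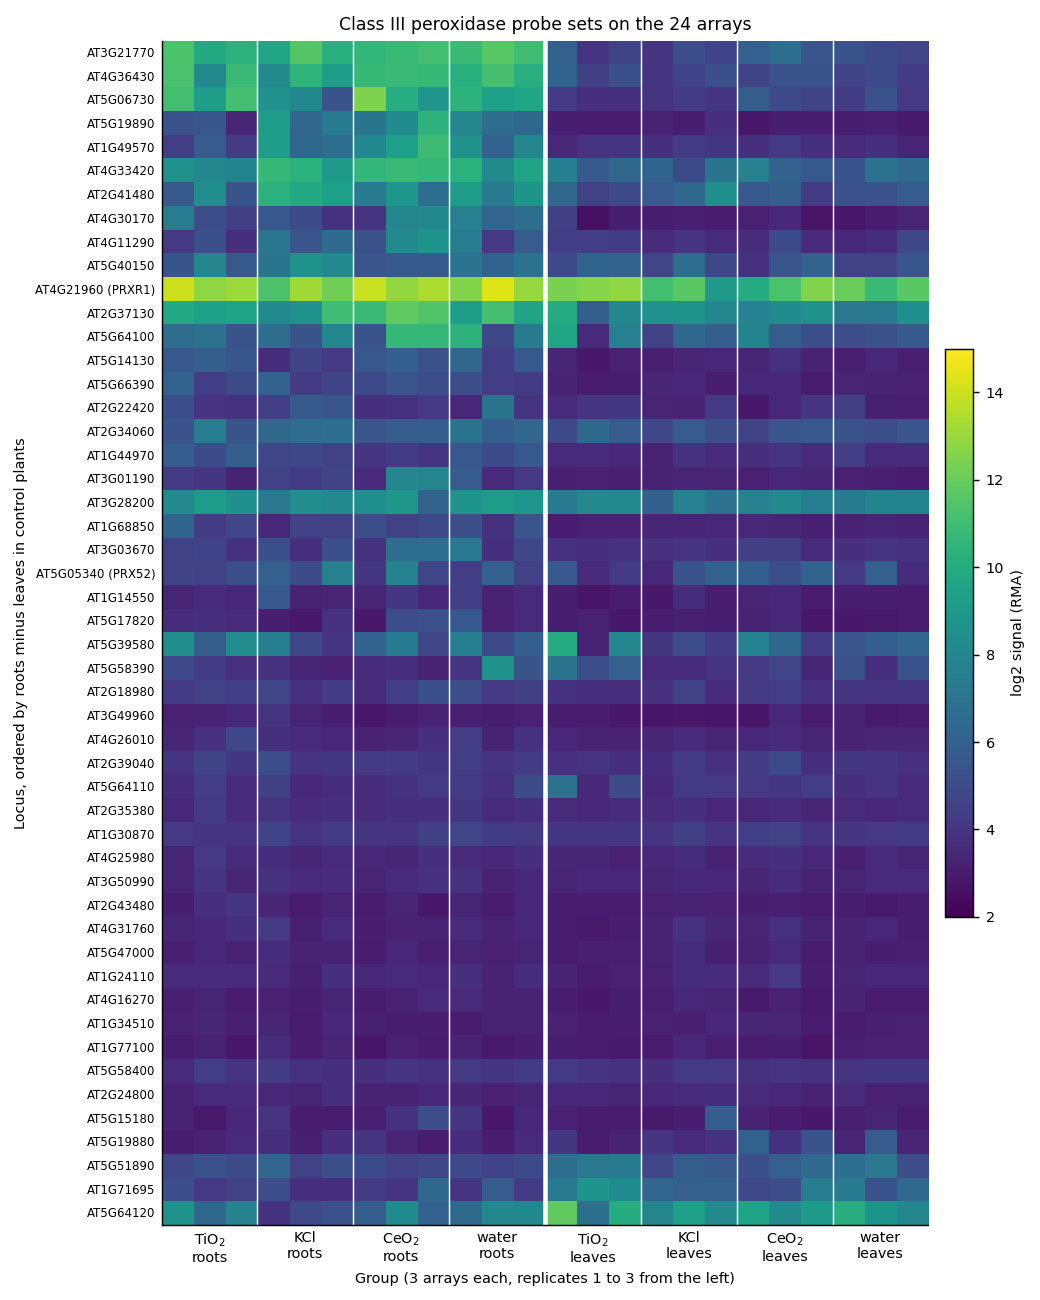
Log2 signal of the 50 class III peroxidase probe sets (rows, ordered by the roots minus leaves difference in control plants) on the 24 arrays (columns, 3 per group). The upper rows are brighter in the 12 root columns, the lowest 3 rows are brighter in most of the 12 leaf columns, and 12 members have every group mean under log2 4.

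The first comparison was between organs. In control plants (KCl and water together, 6 root and 6 leaf arrays), 19 of the 50 members were higher in roots and 2 were lower at an adjusted p under 0.05, against 19.2% and 15.4% of all probe sets. The members called higher were 38% of the family and those called lower were 4%. The median root minus leaf difference was 0.65 over the 50 members and 0.10 over all probe sets. Root and leaf arrays did not overlap for 12 members, all 12 higher in roots, where 7.68% of all probe sets were higher and 8.88% lower without overlap.

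AT3G21770 had the largest root excess of the family, 65.5-fold. Its log2 signal ran 9.62 to 11.61 with a median of 10.93 in control roots and 3.95 to 5.39 with a median of 4.80 in control leaves, a difference of 6.03 ± 0.37 (SE, adjusted p = 5.57e-10). Every control root array was thus above every control leaf array, by more than 4 log2 units. AT4G36430 followed with 8.13 to 11.18 with a median of 10.22 in control roots and 4.02 to 5.17 with a median of 4.65 in control leaves, a difference of 5.28 ± 0.47 or 39-fold (adjusted p = 6.05e-08). The stress and defence list had 7 of 9 loci measured, of which 2 were higher in control roots and 0 lower, with differences between -0.47 and 4.24. The 2 were AT5G06730 (4.24 ± 0.57, adjusted p = 1.07e-05) and AT5G19890 (4.08 ± 0.52, adjusted p = 5.13e-06). AT5G06730 ran 5.35 to 10.38 with a median of 8.95 in control roots and 3.99 to 5.23 with a median of 4.21 in control leaves, and AT5G19890 ran 6.31 to 9.21 with a median of 7.02 in control roots and 2.92 to 3.76 with a median of 3.13 in control leaves. Neither locus overlapped between the organs.

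Members with a role in lignin and the Casparian strip made up the next group, with 9 of 11 listed loci measured, of which 6 were higher in control roots and 1 was lower (5 and 2 in particle-treated plants). Over all probe sets 15.5% were higher and 13.6% lower in roots of particle-treated plants, and 19.2% and 15.4% in those of control plants. AT4G33420, a peroxidase of vessel lignification, ran 8.24 to 10.72 with a median of 9.94 in control roots and 4.93 to 7.06 with a median of 6.36 in control leaves, a difference of 3.55 ± 0.48 (adjusted p = 1.04e-05). AT2G41480, listed in RefSeq under the synonym PRX25 and linked to stem lignin, was higher by 2.99 ± 0.57 (adjusted p = 4.03e-04), although 1 KCl leaf array at 8.47 lay within the root range of 7.37 to 10.29. Of the Casparian strip peroxidases, AT4G11290 was higher by 2.20 ± 0.57, AT5G66390 (synonym PRX72) by 1.50 ± 0.28 and AT1G44970 by 1.28 ± 0.18. Their adjusted p were 0.00495, 3.81e-04 and 1.53e-05. AT2G22420, of lignified tissue, was higher by 1.40 ± 0.48 (adjusted p = 0.0297). PRX52, which acts in stem lignin, was at 4.43 to 7.67 in control roots and 3.45 to 6.02 in control leaves, and its difference of 0.82 ± 0.64 did not pass (adjusted p = 0.357).

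The members that ran the other way were AT5G64120 and AT1G71695. AT5G64120, known as PRX71 among its synonyms and linked to wall stiffening, ran 3.90 to 8.08 with a median of 5.87 in control roots and 7.92 to 10.12 with a median of 8.47 in control leaves, and was lower in roots (-2.61 ± 0.69, adjusted p = 0.00625). AT1G71695 ran 3.73 to 5.77 with a median of 4.13 in control roots and 5.27 to 7.39 with a median of 6.11 in control leaves (-1.77 ± 0.52, adjusted p = 0.0118). Root and leaf arrays overlapped for both loci. Without the narrow-range arrays the difference was -2.04 for AT5G64120 and -1.82 for AT1G71695. That fit keeps replicate 2 as the only KCl root array, so no call is read from it. AT5G51890, which like AT4G33420 is known from lignifying vessels, did not share its root excess, with 4.58 to 6.22 in control roots and 4.71 to 7.16 in control leaves (-0.78 ± 0.34, adjusted p = 0.0812).

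The loci listed as transcribed in most tissues had 4 of 5 measured, with AT3G21770, PRXR1 and AT2G37130 higher in control roots and AT1G71695 lower. All 4 thus differed between the organs here, and AT3G21770 had the largest root excess of the family despite this listing. In particle-treated plants 3 of the 4 were again higher and 1 lower. PRXR1 ran 11.38 to 14.37 with a median of 12.76 in control roots and 9.02 to 12.01 with a median of 11.36 in control leaves, a difference of 1.74 ± 0.48 (adjusted p = 0.00833). AT2G37130 was higher by 1.64 ± 0.57 (adjusted p = 0.0324). None of the 3 measured root hair loci (of 5 listed) passed in either organ comparison. AT4G26010, which acts in root hair growth, was at 3.23 to 4.35 in control roots and 3.27 to 3.61 in control leaves (0.32 ± 0.20, adjusted p = 0.248), AT3G49960 differed by 0.35 ± 0.14 (adjusted p = 0.0578) and AT1G30870 by 0.20 ± 0.14 (adjusted p = 0.280). The 2 reproductive loci, AT3G50990 (synonym PER36, which acts in seed mucilage release) and AT4G16270 (known from pollen and tapetum), stayed under log2 4 in every group mean and differed by 0.15 and 0.06 (adjusted p = 0.439 and 0.728). Apart from the role lists, AT1G49570 (3.72 ± 0.52), AT4G30170 (2.78 ± 0.62) and AT5G40150 (2.18 ± 0.48) were among the 10 largest root excesses, with adjusted p of 1.79e-05, 0.00170 and 0.00157.

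AT1G68850, with no role listed here, ran 3.49 to 5.44 with a median of 4.51 in control roots and 3.25 to 3.51 with a median of 3.36 in control leaves (1.14 ± 0.29, adjusted p = 0.00498), with the lowest root array just under the highest leaf array. AT2G34060 was higher in control roots by 1.29 ± 0.34 (adjusted p = 0.00573). Of the 50 members, 37 had a mean of at least log2 4 in some root group and 26 in some leaf group. The 12 members with every group mean under log2 4 were AT1G24110, AT1G34510, AT1G77100, AT2G24800, AT2G35380, AT2G43480, AT3G49960, AT3G50990, AT4G16270, AT4G25980, AT4G31760 and AT5G47000, and none of them passed in any comparison. There are no detection calls here, so low signal is not read as absence. The members left over, AT2G18980 (0.43 ± 0.23), AT2G39040 (0.31 ± 0.20) and AT5G15180 (-0.17 ± 0.41), did not pass in control plants (adjusted p = 0.165, 0.261 and 0.783).

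Of the 21 calls in control plants, 18 held in each of the 12 fits that left out 1 array. AT2G22420 lost its call without replicate 1 or 2 of the KCl leaves, 2 or 3 of the KCl roots, 2 or 3 of the water leaves or 2 of the water roots (adjusted p from 0.0599 to 0.0713). Without replicate 2 of the water roots, where its signal was 7.07, its difference was 0.84. AT2G37130 lost its call without replicate 3 of the KCl leaves, 3 of the KCl roots, 1 or 2 of the water leaves or 2 of the water roots (adjusted p from 0.0708 to 0.101). AT3G28200 (1.14 ± 0.39, adjusted p = 0.0293) lost its call without replicate 1 of the KCl leaves, 2 or 3 of the KCl roots, 1 of the water leaves or 2 of the water roots (adjusted p from 0.0594 to 0.0874). Without the narrow-range arrays, with replicate 2 as the only KCl root array, no calls are read. AT4G11290 differed there by 1.39 and AT2G37130 by 1.58, against 2.20 and 1.64 with all arrays. Fitted on the 12 control arrays alone (32.4% of all probe sets called), AT2G22420 lost its call (adjusted p = 0.0948). Array weights called 28 members, with 51.7% of all probe sets.

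Particle-treated plants (TiO2 and CeO2 together, 6 root and 6 leaf arrays) share no array with the control plants and gave the same order of organs for most members. Both comparisons took their spread from 1 fit of all 24 arrays, so their calls are not independent. In particle-treated plants 16 members were higher in roots and 3 were lower, against 15.5% and 13.6% of all probe sets. Arrays of the organs did not overlap for 11 members, all higher in roots (6.66% of all probe sets higher, 7.4% lower). In the 2 comparisons 17 members were called in the same direction, 15 of them higher in roots and 2 lower, against 11.8% and 11.1% of all probe sets. The sign was the same for 44 of the 50 members, where it was the same for 81.5% of all probe sets. AT3G21770 ran 9.91 to 11.33 with a median of 10.70 in particle-treated roots and 4.00 to 6.72 with a median of 5.70 in particle-treated leaves (5.22 ± 0.37, adjusted p = 3.66e-09). AT5G06730 had a difference of 5.94 ± 0.57 (adjusted p = 1.87e-07), with 8.77 to 12.50 with a median of 10.58 in particle-treated roots and 3.76 to 5.82 with a median of 4.50 in particle-treated leaves. AT4G36430 differed by 5.19 ± 0.47 and AT5G19890 by 3.62 ± 0.52 (adjusted p = 8.34e-08 and 2.27e-05). AT5G14130 differed by 2.26 ± 0.25 there and by 1.51 ± 0.25 in control plants (adjusted p = 1.09e-06 and 9.92e-05).

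AT5G51890 was lower in roots of particle-treated plants, with 4.54 to 5.27 with a median of 4.87 in roots and 5.16 to 7.32 with a median of 6.57 in leaves (-1.58 ± 0.34, adjusted p = 0.00131). AT5G64120 (-2.09 ± 0.69, adjusted p = 0.0288) and AT1G71695 (-2.20 ± 0.52, adjusted p = 0.00296) were again lower. AT3G01190 passed here and not in control plants (1.94 ± 0.55, adjusted p = 0.0118, against 1.27 ± 0.55, adjusted p = 0.0837, in control plants), and its particle-treated roots spanned 3.26 to 8.01. These calls turned round when each comparison was fitted on its own 12 arrays, with an adjusted p of 0.0597 in particle-treated plants and 0.00888 in control plants. It also lost its call in particle-treated plants without the narrow-range arrays (0.0621) and passed in control plants with array weights (0.0186). AT2G22420, AT2G34060, AT3G28200 and AT5G40150 passed only in control plants. Whether an organ difference moved with each particle was tested as a difference of effects, further on, and none passed. AT1G49570 differed by 3.26 ± 0.52, AT4G33420 by 2.96 ± 0.48, AT4G30170 by 2.93 ± 0.62, AT2G41480 by 1.79 ± 0.57 and AT4G11290 by 1.66 ± 0.57, with adjusted p of 8.90e-05, 8.96e-05, 0.00128, 0.0225 and 0.0334.

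**Figure D2:**
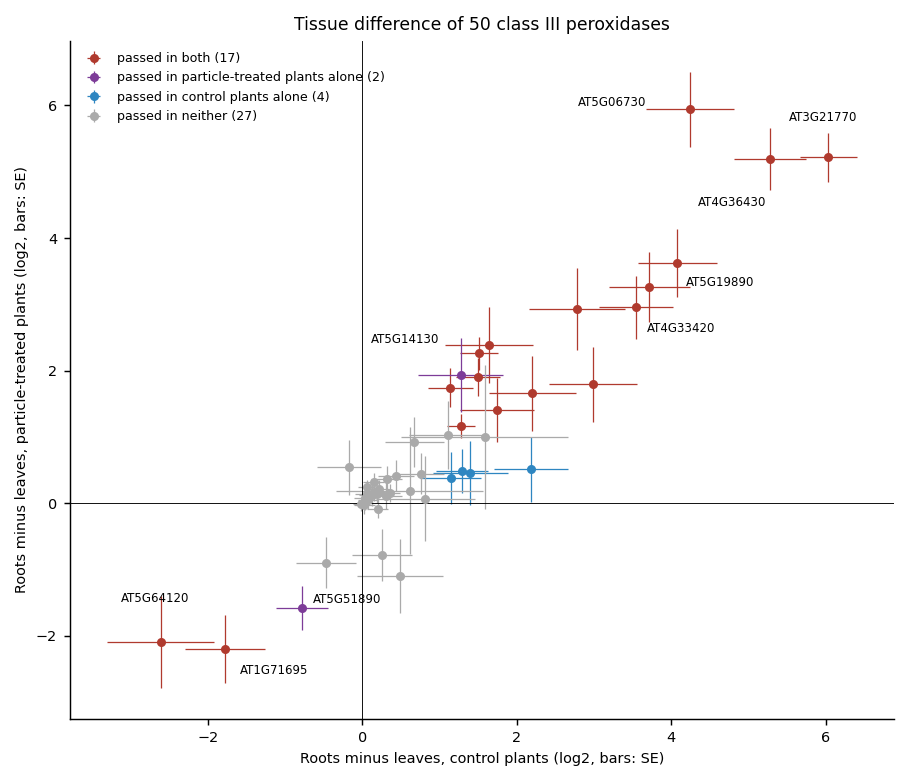
Roots minus leaves difference of the 50 members in control plants (x axis) and in particle-treated plants (y axis), in log2 units with standard errors. The 17 members that passed in both lie along the upper right and lower left, with AT3G21770 at 5.22 in particle-treated and 6.03 in control plants, and AT5G64120 at -2.09 in particle-treated and -2.61 in control plants.

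Of the 19 calls in particle-treated plants, 15 held in each of the 12 fits that left out 1 array. AT2G41480 lost its call without replicate 3 of the CeO2 leaves, 2 of the CeO2 roots, 2 or 3 of the TiO2 leaves or 2 of the TiO2 roots (adjusted p from 0.0524 to 0.0695). AT4G11290 lost it without replicate 1 or 3 of the CeO2 leaves, 2 or 3 of the CeO2 roots, any of the TiO2 leaves or 2 of the TiO2 roots (adjusted p from 0.0529 to 0.0958). PRXR1 (AT4G21960; 1.41 ± 0.48, adjusted p = 0.0338) lost it without replicate 1 or 2 of the CeO2 leaves, 1 or 3 of the CeO2 roots, any of the TiO2 leaves or 1 of the TiO2 roots (adjusted p from 0.0507 to 0.103). AT5G64120 lost it without replicate 1 or 3 of the CeO2 leaves, 1 or 3 of the CeO2 roots, 1 or 3 of the TiO2 leaves or 2 of the TiO2 roots (adjusted p from 0.0522 to 0.0870). Without the narrow-range arrays 15 members were called (27.5% of all probe sets), 14 of them also called with all arrays. AT2G41480, AT3G01190, AT4G11290, PRXR1 and AT5G64120 lost their calls there (adjusted p from 0.0503 to 0.104, the highest for AT5G64120 at -1.96). Fitted on the 12 arrays alone (27.3% of all probe sets called), AT2G41480, AT4G11290 and AT5G64120 lost their calls (adjusted p = 0.0516, 0.0519 and 0.0891) and AT5G58390 gained one (-1.09, adjusted p = 0.0357). With array weights 31 were called (48.5% of all probe sets), and AT5G64120 lost its call (-0.93, adjusted p = 0.211).

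Particles were compared with their own controls in each organ. The median difference over the 50 members was -0.05 for TiO2 against KCl in roots, -0.07 for CeO2 against water in roots, -0.09 for TiO2 against KCl in leaves and 0.11 for CeO2 against water in leaves, beside -0.06, -0.04, -0.07 and 0.02 over all probe sets. In roots, TiO2 plants against KCl plants gave 0 members at an adjusted p under 0.05 with limma, and 79 of all probe sets (0.347%) passed. At an unadjusted p under 0.05 there were 9 members, 18% of the family, beside 12.5% of all probe sets. Of the 9, 4 were higher and 5 lower, against 5.69% and 6.79% of all probe sets. The arrays did not overlap for 9 members, 18% beside 15.3%. The values behind the smallest p, none of them passing, are given next.

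AT2G41480 had 5.69, 8.35 and 5.40 in TiO2 roots, against 10.29, 9.96 and 9.32 in KCl roots. All 3 TiO2 arrays lay below all 3 KCl arrays, with replicate 2 of TiO2 close to the KCl range, and the difference was -3.37 ± 0.82 (95% interval -5.19 to -1.56, adjusted p = 0.116). The vessel peroxidase AT4G33420 had 8.60, 8.03 and 7.86 in TiO2 roots, against 10.72, 10.30 and 9.02 in KCl roots (-1.85 ± 0.53, adjusted p = 0.167). AT5G19890 had 5.32, 5.48 and 3.40 in TiO2 roots, against 9.21, 6.31 and 7.38 in KCl roots (-2.90 ± 0.97, adjusted p = 0.226), and AT1G49570 had 4.35, 5.74 and 4.27 in TiO2 roots, against 9.31, 6.39 and 6.72 in KCl roots (-2.69 ± 0.98, adjusted p = 0.273). In CeO2 and water roots, which do not enter these differences, AT5G19890 had 8.59 ± 1.69 and 6.97 ± 0.81, and AT1G49570 9.44 ± 1.43 and 7.54 ± 1.37 (SD, n = 3 each). TiO2 roots thus held the lowest of the 4 root means for both loci.

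In the other direction, AT5G64120 had 8.61, 6.35 and 7.76 in TiO2 roots, against 3.90, 4.87 and 5.23 in KCl roots, with every TiO2 array above every KCl array (2.91 ± 0.78, 95% interval 1.18 to 4.64, adjusted p = 0.144). AT5G06730 had 11.07, 9.31 and 11.19 in TiO2 roots, against 8.56, 8.08 and 5.35 in KCl roots (3.19 ± 1.03, adjusted p = 0.210). AT5G14130 had 5.57, 5.93 and 5.48 in TiO2 roots, against 3.67, 4.64 and 4.18 in KCl roots (1.49 ± 0.44, adjusted p = 0.173). The Casparian strip peroxidase AT1G44970 had 5.78, 4.99 and 5.85 in TiO2 roots, against 4.73, 4.75 and 4.53 in KCl roots (0.87 ± 0.26, adjusted p = 0.186). In none of these 4 loci did the groups overlap.

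Tissue markers also differed in value between these groups. The summed root markers were 40.7, 36.1 and 36.1 in TiO2 roots, against 37.7, 45.2 and 41.0 in KCl roots, and the summed leaf markers were 28.2, 26.6 and 27.1 in TiO2 roots, against 23.7, 20.7 and 28.0 in KCl roots. The median difference was -0.87 over the 4 root markers, all 4 below 0, and 0.54 over the 5 leaf markers. Whether PYK10 and the JAL genes give 4 separate readings of root content was not tested. None of the 9 passed, and the arrays overlapped in each. AT2G41480, AT4G33420, AT5G19890 and AT1G49570, lower in TiO2 than in KCl roots, are root-high in the organ comparison. AT5G64120, higher in TiO2 than in KCl roots, is leaf-high. AT5G06730, AT5G14130 and AT1G44970 are root-high too, but were higher in TiO2 than in KCl roots. The part of the markers in all these values was not tested.

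The count of 0 depended on 1 library and on the fit. Without replicate 2 of the TiO2 roots, a narrow-range array, 3 members passed: AT2G41480 at -4.31 (adjusted p = 0.0218), AT5G40150 at -2.48 (0.0331) and AT1G44970 at 1.14 (0.0446), with 2% of all probe sets called. With all 24 arrays in 1 fit 4 members passed, AT2G41480, AT5G06730, AT5G14130 and AT5G19890 (adjusted p from 0.0293 to 0.0409), where 2.68% of all probe sets passed. Array weights called 17 members, with 32.1% of all probe sets.

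**Figure D3:**
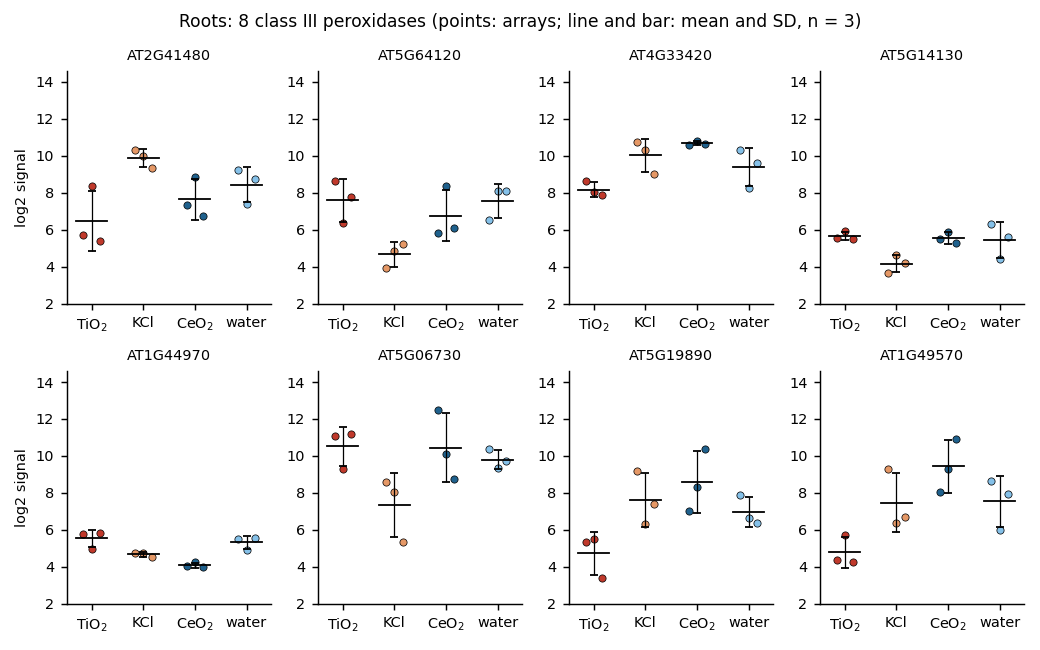
Log2 signal of 8 class III peroxidases in TiO2, KCl, CeO2 and water roots; points are arrays and bars are the mean with its SD (n = 3). TiO2 roots lie below KCl roots for AT2G41480, AT4G33420, AT5G19890 and AT1G49570 and above them for AT5G64120, AT5G14130, AT1G44970 and AT5G06730, with no adjusted p under 0.05.

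The salt itself was compared with water, and these roots share the KCl arrays with the TiO2 comparison, so the values of the 2 comparisons are not independent. KCl against water in roots gave 0 members at an adjusted p under 0.05 (0.119% of all probe sets passed) and 5 at an unadjusted p under 0.05, which is 10% of the family beside 11.6% of all probe sets. All 5 were lower in KCl, against 5.41% of all probe sets. Arrays did not overlap for 8 members, 16% beside 15.9%, and array weights called 10 members, with 23.8% of all probe sets. AT5G64120 had 3.90, 4.87 and 5.23 in KCl roots, against 6.51, 8.08 and 8.07 in water roots (-2.89 ± 0.78, adjusted p = 0.155), and the groups did not overlap. AT5G06730 had 8.56, 8.08 and 5.35 in KCl roots, against 10.38, 9.33 and 9.70 in water roots (-2.48 ± 1.03, adjusted p = 0.381). For AT5G14130 the values were 3.67, 4.64 and 4.18 in KCl roots, against 6.32, 4.39 and 5.58 in water roots (-1.26 ± 0.44, adjusted p = 0.271). AT1G44970 differed by -0.65 ± 0.26 (adjusted p = 0.361). AT5G58390 had 3.89, 3.35 and 3.22 in KCl roots, against 3.94, 8.67 and 5.35 in water roots (-2.50 ± 0.92, adjusted p = 0.307), where replicate 2 of water stood far above the others.

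For AT5G64120 the means over the root groups were therefore 7.58 ± 1.14 with TiO2, 4.67 ± 0.69 with KCl, 6.75 ± 1.38 with CeO2 and 7.55 ± 0.90 with water (SD, n = 3 each). AT5G06730 averaged 10.52 ± 1.05 with TiO2, 7.33 ± 1.73 with KCl, 10.46 ± 1.89 with CeO2 and 9.81 ± 0.53 with water. AT5G14130 averaged 5.66 ± 0.24 with TiO2, 4.16 ± 0.49 with KCl, 5.54 ± 0.31 with CeO2 and 5.43 ± 0.97 with water. The KCl roots had the lowest mean in all 3 loci, and the TiO2 roots averaged within 1 SD of the CeO2 roots. These 3 were picked from the 5 loci named above for KCl against water in roots, all 5 lower in KCl. All 3 were also named above as higher in TiO2 than in KCl roots. A KCl mean below those of water and TiO2 was thus set by the choice. Of the others, AT1G44970 had its lowest root mean with CeO2. AT5G58390 had its lowest with KCl, where the KCl and CeO2 arrays overlapped. The TiO2 and CeO2 roots were not tested against each other.

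CeO2 against water in roots gave 0 members at an adjusted p under 0.05 (4 probe sets, 0.0176%, passed) and 3 at an unadjusted p under 0.05, 6% of the family beside 6.7% of all probe sets. Arrays did not overlap for 6 members, 12% beside 13%. Array weights called 16 members, with 20.9% of all probe sets. AT1G44970, one of the Casparian strip peroxidases, had 4.04, 4.24 and 3.98 in CeO2 roots, against 5.51, 4.90 and 5.56 in water roots. All CeO2 arrays lay below all water arrays (-1.24 ± 0.26, 95% interval -1.83 to -0.65, adjusted p = 0.236), and in the fit of all 24 arrays its adjusted p was 0.0477, the 1 member called there (0.286% of all probe sets). AT4G33420 had 10.59, 10.82 and 10.64 in CeO2 roots, against 10.29, 8.24 and 9.60 in water roots (1.31 ± 0.53, adjusted p = 0.691), on the opposite side to its difference with TiO2. AT5G58390 differed by -2.40 ± 0.92 (adjusted p = 0.649), with 3.63, 3.82 and 3.31 in CeO2 roots. AT1G49570 differed by 1.90 ± 0.98 (adjusted p = 0.834).

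The spread among roots of 1 group was wide for several members. The median standard error of a root comparison was 0.52 over the members and 0.35 over all probe sets, while in leaves it was 0.24 and 0.28. AT5G64100, of the stress and defence list, had 5.39, 10.68 and 10.68 in CeO2 roots, against 10.34, 4.82 and 7.30 in water roots. AT3G01190 had 3.54, 8.01 and 7.93 in CeO2 roots, against 5.73, 3.53 and 4.16 in water roots (2.03 ± 1.04, adjusted p = 0.834). Replicates 2 and 3 of CeO2 and replicate 1 of water were the high arrays of both loci.

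The same 3 arrays were the highest of their groups for AT3G03670, AT4G11290, AT4G30170 and AT5G17820. AT4G11290, a Casparian strip peroxidase, had 5.22, 8.20 and 8.75 in CeO2 roots, against 7.47, 4.18 and 5.71 in water roots, and AT5G17820 had 2.90, 5.09 and 5.21 in CeO2 roots, against 5.60, 3.19 and 3.53 in water roots. AT3G03670 had 3.89, 6.68 and 6.69 in CeO2 roots, against 7.26, 3.77 and 4.78 in water roots, and AT4G30170 had 3.94, 7.96 and 8.09 in CeO2 roots, against 7.68, 6.25 and 6.71 in water roots. On these arrays 18, 17 and 19 of the 50 members exceeded log2 6, beside 11 on replicate 1 of CeO2 and 15 on each of the other water arrays. Their summed root markers were 44.4, 45.5 and 43.2, beside 45.6 on replicate 1 of CeO2 and 43.4 and 40.0 on the other water arrays. Replicate 1 of water was a narrow-range array. These 6 loci were grouped after their values were seen, and what set these arrays apart was not tested.

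**Figure D4:**
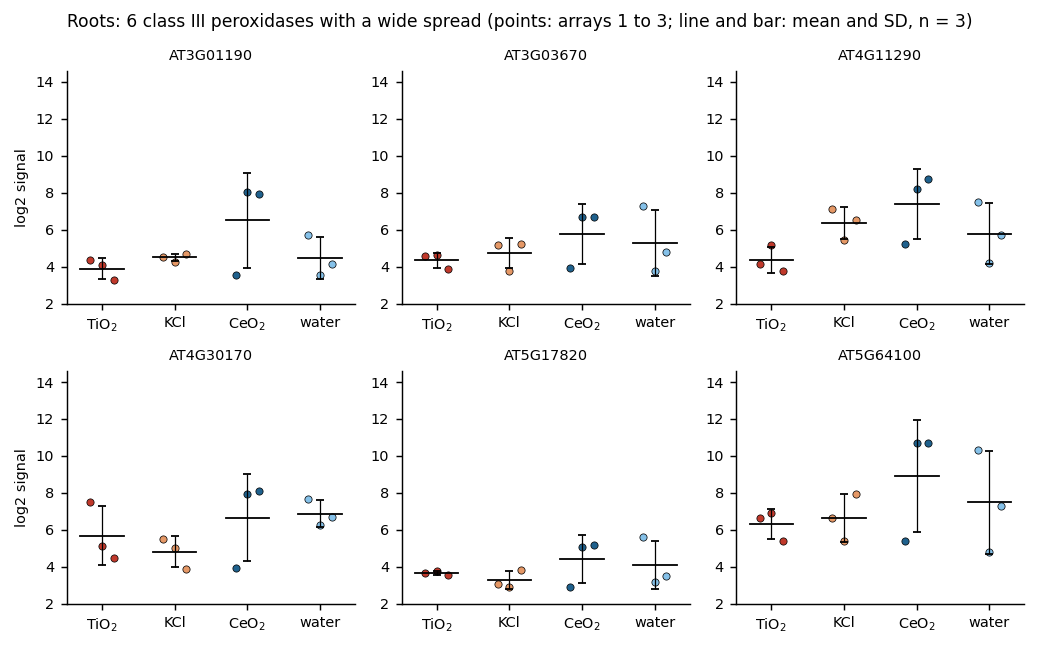
Log2 signal of 6 class III peroxidases in TiO2, KCl, CeO2 and water roots, with arrays 1 to 3 from left to right and the mean with its SD (n = 3). Among CeO2 and water roots, replicates 2 and 3 of CeO2 and replicate 1 of water are the high points of their groups, up to 10.68 for AT5G64100, and replicate 1 of CeO2 is low in each panel.

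In leaves, TiO2 plants against KCl plants gave 0 members at an adjusted p under 0.05 (5 probe sets, 0.022%, passed) and 8 at an unadjusted p under 0.05, 16% of the family beside 15.5% of all probe sets. Of the 8, 5 were higher and 3 lower, against 8.44% and 7.05% of all probe sets. Arrays did not overlap for 12 members, 24% beside 25.2%, and array weights called 8 members, with 19.8% of all probe sets. AT5G58390 had 6.98, 5.13 and 5.99 in TiO2 leaves, against 3.62, 3.67 and 3.94 in KCl leaves (2.29 ± 0.53, 95% interval 1.10 to 3.48, adjusted p = 0.144). The vessel peroxidase AT5G51890 had 6.68, 7.23 and 7.32 in TiO2 leaves, against 4.71, 5.82 and 5.64 in KCl leaves (1.68 ± 0.55, adjusted p = 0.221). AT1G71695 had 7.28, 8.72 and 8.32 in TiO2 leaves, against 5.99 to 6.23 in KCl leaves (2.03 ± 0.72, adjusted p = 0.245). PRXR1 (AT4G21960) had 12.37, 12.64 and 12.82 in TiO2 leaves, against 11.08, 11.65 and 9.02 in KCl leaves (2.03 ± 0.73, adjusted p = 0.248). The TiO2 arrays lay above the KCl arrays without overlap in these 4 loci. AT3G28200 had 7.28, 8.11 and 8.12 in TiO2 leaves, against 5.92, 7.66 and 6.85 in KCl leaves, which overlapped (1.03 ± 0.41, adjusted p = 0.281).

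Other loci varied widely within the TiO2 leaves. AT5G39580, known from defence and root hair growth, had 10.05, 3.25 and 7.95 in TiO2 leaves, against 4.13, 5.08 and 4.28 in KCl leaves. AT5G64100 had 9.62, 3.55 and 7.66 in TiO2 leaves, against 4.57, 6.39 and 5.93 in KCl leaves, and AT5G64120 had 11.81, 6.82 and 10.06 in TiO2 leaves, against 7.92, 9.32 and 8.21 in KCl leaves. AT5G64110 had 6.91, 3.51 and 5.02 in TiO2 leaves, against 3.46, 4.21 and 4.18 in KCl leaves. Replicate 1 was the highest and replicate 2 the lowest of the TiO2 leaves in all 4 loci, with differences between the group means of 2.59 ± 1.44, 1.31 ± 1.30, 1.08 ± 1.07 and 1.19 ± 0.65. The summed root markers of the same arrays were 24.8 on replicate 1, 14.8 on replicate 2 and 19.0 on replicate 3, the highest and the lowest of all leaf arrays being replicates 1 and 2. Their part in these values was not tested.

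**Figure D5:**
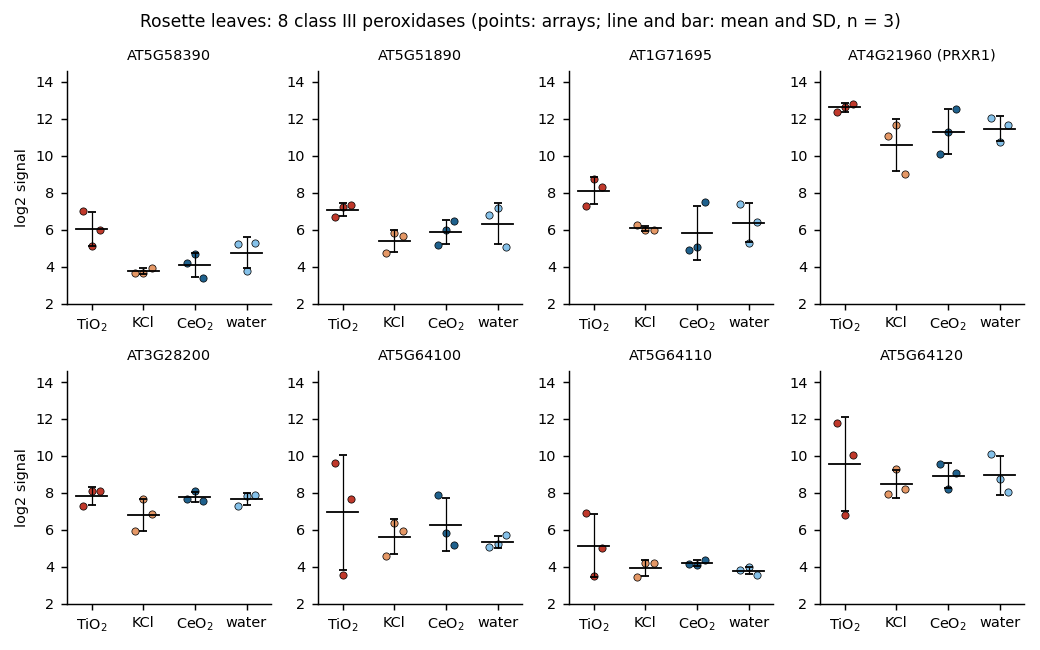
Log2 signal of 8 class III peroxidases in TiO2, KCl, CeO2 and water leaves; points are arrays and bars are the mean with its SD (n = 3). TiO2 leaves lie above KCl leaves in the upper row, and the TiO2 arrays spread widely for AT5G64100, AT5G64110 and AT5G64120, with AT5G64120 between 6.82 and 11.81.

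CeO2 against water in leaves gave 0 members at an adjusted p under 0.05 and also 0 at an unadjusted p under 0.05, beside 0% and 2.21% of all probe sets. The arrays did not overlap for 5 members, 10% beside 5.22%. AT3G21770 had 5.97, 6.72 and 5.43 in CeO2 leaves, against 5.39, 4.90 and 4.71 in water leaves (1.04 ± 0.52, 95% interval -0.11 to 2.19, adjusted p = 0.9995). AT3G01190 differed by 0.26 ± 0.12, AT1G49570 by 0.37 ± 0.21, AT5G06730 by 0.58 ± 0.35 and AT4G25980 by 0.27 ± 0.17, with adjusted p of 0.9995 for each.

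KCl against water in leaves gave 0 members at an adjusted p under 0.05 (0.189% of all probe sets passed) and 1 at an unadjusted p under 0.05, 2% of the family beside 12.2% of all probe sets. Arrays did not overlap for 5 members, 10% beside 17.1%. The 1 member was AT1G49570, with 3.73, 4.26 and 4.12 in KCl leaves, against 3.56, 3.73 and 3.34 in water leaves (0.49 ± 0.21, adjusted p = 0.375). AT3G28200 differed by -0.88 ± 0.41, AT2G41480 by 1.42 ± 0.71, AT5G19890 by 0.35 ± 0.18 and AT5G58390 by -1.02 ± 0.53 (adjusted p = 0.428, 0.470, 0.472 and 0.493). The TiO2 leaves of AT5G58390, whose comparison shares these KCl arrays, averaged 6.03 ± 0.92, against 3.74 ± 0.17 in KCl, 4.09 ± 0.65 in CeO2 and 4.76 ± 0.86 in water leaves (SD, n = 3 each).

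Whether a particle effect differed between the organs was tested directly. The TiO2 effect in roots minus that in leaves passed for 0 members (0.207% of all probe sets) and was under an unadjusted p of 0.05 for 8, 16% of the family beside 11.2% of all probe sets. Array weights called 11, with 18.2% of all probe sets. AT5G14130 had the smallest p (1.66 ± 0.50, adjusted p = 0.178), with 1.49 in roots and -0.16 in leaves. AT5G51890 had -1.99 ± 0.67 (adjusted p = 0.240), with -0.31 in roots and 1.68 in leaves. AT5G06730 had 3.33 ± 1.14 (adjusted p = 0.248), with 3.19 in roots and -0.14 in leaves. The CeO2 effect passed for 0 members (0.0044% of all probe sets) and was under an unadjusted p of 0.05 for 1, AT1G44970 (-1.19 ± 0.36, adjusted p = 0.571), which is 2% of the family beside 4.91% of all probe sets. Array weights called 2, with 3.7% of all probe sets. AT3G21770 (-1.35 ± 0.74) and AT5G19890 (1.65 ± 1.03) followed, each with an adjusted p of 0.967.

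Some members are neighbours on the chromosome. The RefSeq table places 7 pairs of listed loci next to each other with no protein-coding gene between. In the run AT5G64100, AT5G64110 and AT5G64120, the control root minus leaf differences were 1.59 ± 1.08, 0.25 ± 0.39 and -2.61 ± 0.69 (adjusted p = 0.280, 0.658 and 0.00625). In the pair AT5G19880 and AT5G19890 they were -0.47 ± 0.39 and 4.08 ± 0.52 (adjusted p = 0.381 and 5.13e-06). The root excess of AT5G19890 thus had no counterpart at AT5G19880, which was at 2.99 to 3.83 in control roots and 3.36 to 5.72 in control leaves. AT5G58390 and AT5G58400 differed between control roots and leaves by 0.49 ± 0.56 and 0.03 ± 0.14 (adjusted p = 0.542 and 0.906), and with TiO2 against KCl in leaves by 2.29 ± 0.53 and -0.02 ± 0.16 (adjusted p = 0.144 and 0.962). AT1G14550 and AT5G06730 were measured without their neighbours AT1G14540 and AT5G06720, and AT1G14550 differed between control roots and leaves by 0.76 ± 0.30 (adjusted p = 0.0625). Near-identical neighbours can share hybridisation, and how far these probe sets separate them was not tested.

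The probe set shared by the neighbours AT4G37520 and AT4G37530 had 7.71, 5.68 and 7.94 in TiO2 roots, against 5.60, 5.32 and 5.61 in KCl roots. Its difference was 1.60 ± 0.52 (adjusted p = 0.216), and KCl roots differed from water roots by -1.52 ± 0.52 (adjusted p = 0.263). Between roots and leaves it differed by -0.89 ± 0.44 in particle-treated plants (adjusted p = 0.147) and was lower in roots of control plants (-1.49 ± 0.44, adjusted p = 0.0123). The probe set shared by AT3G17070 and AT3G42570 was lower in roots in both (-2.08 ± 0.49 in particle-treated plants and -1.70 ± 0.49 in control plants, adjusted p = 0.00313 and 0.0115). Signals of the 2 loci of a shared probe set cannot be told apart.

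Few genes that work beside the family had a probe set in the annotation used here. Monolignol synthesis, which makes the substrates of lignin peroxidases, had 2 of 18 listed genes measured, and both were higher in roots than in leaves. HCT, which makes the shikimate esters on the way to coniferyl alcohol, was higher by 1.82 ± 0.30 in particle-treated plants and 2.32 ± 0.30 in control plants (adjusted p = 1.00e-04 and 5.91e-06). CCR2, a cinnamoyl-CoA reductase, was higher by 4.30 ± 0.76 in particle-treated plants and 3.47 ± 0.76 in control plants (adjusted p = 2.43e-04 and 0.00147). Of 9 Casparian strip genes 2 were measured. The kinase SGN1 was higher in roots by 2.94 ± 0.46 in particle-treated plants and 3.07 ± 0.46 in control plants (adjusted p = 6.79e-05 and 3.63e-05). The receptor kinase SGN3 differed by 0.42 ± 0.18 in particle-treated plants (adjusted p = 0.0882) and was higher in roots of control plants by 0.49 ± 0.18 (adjusted p = 0.0376).

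Of 10 NADPH oxidases, which make the superoxide behind apoplastic hydrogen peroxide, 3 were measured and 1 was higher in roots, RBOHE. It differed by 0.37 ± 0.10 in particle-treated plants and 0.30 ± 0.10 in control plants (adjusted p = 0.00712 and 0.0221). Its signal was low throughout, at 3.22 to 3.65 in roots and 2.78 to 3.18 in leaves, with every group mean under log2 4. Of 11 listed catalases and ascorbate peroxidases, which consume hydrogen peroxide inside the cell, 2 were measured. TAPX, the thylakoid enzyme, was lower in roots, by -4.44 ± 0.28 in particle-treated plants and -4.38 ± 0.28 in control plants (adjusted p = 7.01e-10 and 7.88e-10). The stromal SAPX differed by 0.08 ± 0.29 in particle-treated plants and 0.21 ± 0.29 in control plants and did not pass (adjusted p = 0.894 and 0.619). The root hair expansins EXPA7 and EXPA18, 2 of 9 listed root hair genes, differed by -0.05 ± 0.17 and 0.13 ± 0.17 in control plants (adjusted p = 0.853 and 0.613), beside 0.20 to 0.35 for the root hair peroxidases. EXPA7 and the 1 measured laccase of 17, LAC16, had every group mean under log2 4, so their small differences say little. LAC16 differed by 0.13 ± 0.14 (adjusted p = 0.504), and 0 of 9 suberin genes were measured. In the particle and salt comparisons 0 of these genes passed, the nearest being HCT in KCl against water leaves, with 8.45, 9.14 and 8.94 in KCl leaves, against 11.65, 11.24 and 10.58 in water leaves (-2.31 ± 0.38, adjusted p = 0.0566).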

How the data were processed

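Total RNA of roots and rosette leaves was hybridised to 24 Affymetrix ATH1 arrays. The deposited values are log2 signals that the authors made with RMA, per the submitters' processing notes, and the version and joint normalization of all arrays are not given in the sources used here. No detection calls were used, and the number of arrays limits the precision. Probe sets were matched to loci by the platform annotation (14016 probe sets listed, 13513 of 1 gene) and RefSeq TAIR10.1, and no genome build is named for the array values, so no coordinates are given.

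Linear models were fitted in limma 3.58.1 (R 4.3.3) to all 22746 probe sets, with the 12 arrays of an organ for comparisons within it and all 24 across organs. Moderated tests were two-sided, with Benjamini-Hochberg adjustment over all probe sets in each of 10 comparisons and a threshold of 0.05. Values after ± are standard errors for differences and SDs for means. Python 3.11.15, pandas 2.3.3 and matplotlib 3.10.9 made the tables and plots. The fits were tested on simulated data.

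Named members are those that passed, filled to 5 by the smallest p in particle and salt comparisons and to 3 for differences of effects, the 10 largest rises and up to 5 falls between organs, tandem neighbours and members with a listed role; others were named after their values were seen. Members, role lists and related genes were chosen with earlier results of these data known. Deviations of same-numbered arrays were correlated for the groups compared within an organ and for roots with leaves of 1 treatment, not for other pairs. Among these, every correlation was above 0.1 only for KCl and water roots (0.37, 0.34 and 0.18) and for CeO2 roots and leaves (0.30, 0.33 and 0.26), a hint from the data and not from the labels. Every correlation was below 0 for TiO2 and KCl roots (-0.19, -0.45 and -0.05) and for water roots and leaves (-0.21, -0.28 and -0.03). Replicate 1 was a narrow-range array in both KCl and water roots. The part of the array range in these correlations was not tested. Alternatives were renormalization, centring, a replicate block, other sets of arrays in the fit, a filter at log2 4, array weights, and leaving out narrow-range arrays or each array in turn.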

Additional observations from a re-analysis of the deposited data

How the results depend on the processing

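The counts of members called kept within 1.5 times of the values given above under a second quantile normalization and under centring. They also did so with the replicate block, the fit of the compared groups alone and the filter at log2 4. Leaving out the narrow-range arrays keeps replicate 2 as the only KCl root array. Counts without them are therefore no sign of stability in comparisons that use the KCl roots. With the replicate block, 19 members passed between the organs in particle-treated plants, 21 in control plants and 0 in each of the other 8 comparisons, so it changed no count of members. Over all probe sets it took KCl against water in roots from 27 calls to 0. The block spans all root groups, and same-numbered TiO2 and KCl roots deviated oppositely (-0.19, -0.45 and -0.05). It therefore cannot settle a pairing of KCl with water roots. Array weights called 17 members for TiO2 in roots, 16 for CeO2 in roots, 8 for TiO2 in leaves, 10 for KCl against water in roots, 31 for roots against leaves in particle-treated plants, 11 for the TiO2 effect and 2 for the CeO2 effect in roots against leaves. All probe sets moved likewise, to 32.1%, 20.9%, 19.8%, 23.8%, 48.5%, 18.2% and 3.7% called, the estimation of the weights stopped before converging in some fits, and the cause was not tested. One fit of all 24 arrays called 4 for TiO2 in roots and 1 for CeO2 in roots. Leaving out 1 array gave 0 to 3 members for TiO2 in roots, 15 to 20 between the organs in particle-treated plants, 19 to 22 in control plants and 0 elsewhere. Centred arrays shifted the median over all probe sets by -0.12 for KCl against water in roots and by 0.19 for the TiO2 effect in roots against leaves. For the members picked in each comparison by the smallest p or, between organs, by the largest difference, 928 differences under the alternatives kept their side of the threshold, 29 gained a call, 30 lost one and none turned in sign. Members named for their role or position are not in these counts.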
